A study of Homo sapiens with 6 samples.

Results

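RNA levels were followed for 10 genes of the NF-kB pathway in DLD-1 cells, an established line of human colorectal adenocarcinoma. The genes were listed by name: NFKBIA, NFKB1, NFKB2, RELB, TNFAIP3, CXCL1, CXCL2, CXCL3, CXCL8 and BIRC3. Matching of identifiers to symbols found all 10 among the 58051 genes of the count table.

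All 6 cultures carried TPR, a protein of the nuclear basket of the nuclear pore, tagged at its own locus with an auxin-inducible degron (AID) and NeonGreen, together with the ubiquitin ligase TIR1 expressed from the RCC1 locus. All of them received 200 nM Leptomycin B (LMB), a blocker of the export receptor CRM1, for 3 h. The 3 cultures of the LMB+auxin group also received 1 mM auxin for the last 2 h, which triggers degradation of the tagged TPR, and the 3 cultures of the LMB group did not. RNA was sequenced after removal of ribosomal RNA, and the total count per library ran from 28261903 to 35992425. No library without LMB and none of untagged cells was analysed here, so LMB itself was not put to a comparison, and a response to the auxin compound cannot be told apart from one to TPR loss. The sample titles give 2 h where the recorded incubation times give 3 h of LMB, and the recorded times were used. TPR protein was not measured in these files.

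NF-kB is a family of dimeric transcription factors built from RELA, RELB, REL and the processed products of NFKB1 and NFKB2. In resting cells the dimers are held by inhibitors such as IkB alpha, the product of NFKBIA, and signals from cytokine receptors lead to the destruction of the inhibitor. NF-kB then switches on its own inhibitors and brakes, survival genes and chemokines that attract neutrophils. IkB alpha shuttles between nucleus and cytoplasm, and CRM1 is the receptor that exports it, so a CRM1 block is known to retain it in the nucleus. The comparison asks whether RNAs of this feedback loop depend on TPR in cells whose CRM1 is already inhibited.

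Most of the genes share DNA letters that NF-kB is known to bind. Promoter windows of 300 bases, from 250 before to 50 after an annotated start, were taken from RefSeq (GRCh38.p14). They were searched on both strands for the kB consensus GGGRNNYYCC, where R is A or G, Y is C or T and N is any base. Of the 10 genes, 9 matched the table, and RELB did not. The 9 genes had 12 windows between them. The consensus was present in 9 of these (75.0%), belonging to 8 genes, and in 11.3% of all 35116 promoter windows. The genes were listed as NF-kB regulators and targets, and the windows of CXCL1, CXCL2 and CXCL3 are much alike. The share is therefore a description and not a test. CXCL8 held no match to the consensus but held the 9 letters GGAATTTCC, a form chosen after the sequences were seen, which overlaps the consensus in other genes and was present in 0.461% of all windows. TNFAIP3, BIRC3 and NFKB2 also held consensus matches with other letters, such as GGAAAGTCCC, GGAGTTCCCC and GGGGCTTTCC, whose stretches are not given below. How alike the letters look between genes therefore depends in part on which match was chosen. For each matched gene, 1 stretch of 30 bases with its match in capitals is given. Each is written along the strand of its gene.
NFKBIA (chr14:35404811-35404840, minus strand): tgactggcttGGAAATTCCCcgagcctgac
NFKB1 (chr4:102501300-102501329, plus strand): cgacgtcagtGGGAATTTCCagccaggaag
NFKB2 (chr10:102394461-102394490, plus strand): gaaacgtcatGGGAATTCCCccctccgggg
TNFAIP3 (chr6:137867194-137867223, plus strand): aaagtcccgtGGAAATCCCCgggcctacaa
BIRC3 (chr11:102317275-102317304, plus strand): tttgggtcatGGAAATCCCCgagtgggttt
CXCL1 (chr4:73869304-73869333, plus strand): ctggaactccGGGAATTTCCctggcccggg
CXCL2 (chr4:74099254-74099283, minus strand): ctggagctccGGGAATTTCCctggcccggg
CXCL3 (chr4:74038749-74038778, minus strand): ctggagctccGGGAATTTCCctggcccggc
CXCL8 (chr4:73740468-73740497, plus strand): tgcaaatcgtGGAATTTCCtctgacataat
CXCL5 (chr4:73998749-73998778, minus strand): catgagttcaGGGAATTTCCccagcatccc
CXCL6 (chr4:73836578-73836607, plus strand): cctgagttcaGGGAATTTCCccagcatccc
CXCL5 and CXCL6, which are not among the 10, are included as close neighbours of the chemokine genes. In NFKBIA, TNFAIP3 and BIRC3 the match lies on the opposite strand. The windows of CXCL1 and CXCL3 were identical at 82.5% of aligned positions, those of CXCL1 and CXCL2 at 72.9%, those of CXCL2 and CXCL3 at 73.7% and those of CXCL5 and CXCL6 at 83.1%. A match describes letters and is not evidence of binding in these cells.

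None of the 10 RNAs was called changed when TPR was degraded under LMB. A gene was called at an adjusted p under 0.05 and a change of at least 1.3-fold either way in the edgeR quasi-likelihood test, fitted on the 16974 genes that had more than 1 CPM in 3 or more libraries. CPM is the count in a library of standard size, scaled here by TMM. Of the 10 genes, 7 passed that filter, and CXCL1, CXCL2 and CXCL8 did not. EdgeR called 0 of the 7 (0 at an unadjusted p under 0.05), while it called 0.00589% of all tested genes (1 gene) and 4.37% had an unadjusted p under 0.05. Samples with the same replicate number deviated together, so the fit was repeated with the replicate number as a block. With the block 0 of the 7 were called and 0 had an unadjusted p under 0.05, against 1.19% of all tested genes called (202 genes) and 19.9% at that p. DESeq2 and limma-voom also called 0 of the 7. The values of the groups overlapped for all 10 genes, and so for the 7 tested. They did not overlap for 11.5% of all tested genes, and 0 of 7 is near that share.

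**Figure D1:**
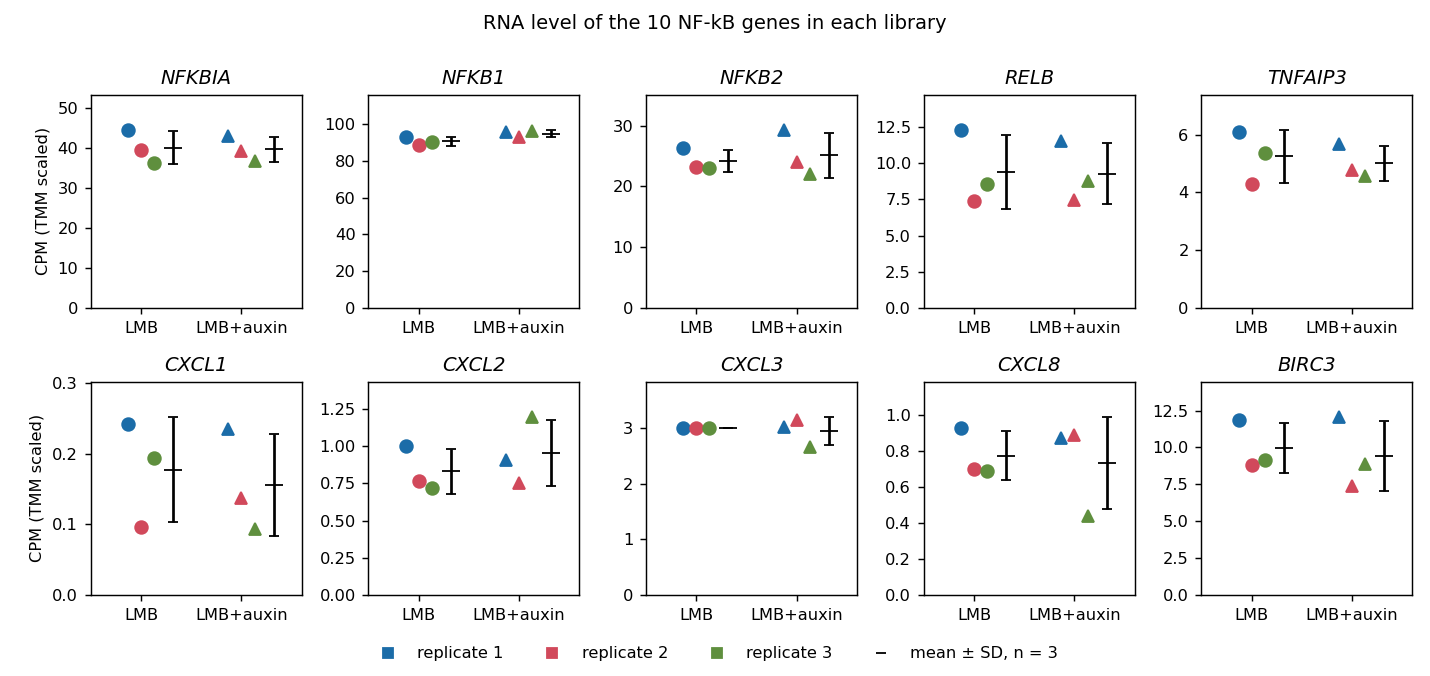
RNA level in CPM (vertical axis from 0, its own scale for each gene) of the 10 genes in each LMB library (circles) and LMB+auxin library (triangles), coloured by replicate number, with the mean ± SD of each group (n = 3) in black. The groups overlap in every panel, and replicate 1 is the highest library of both groups for NFKBIA, NFKB2, RELB, TNFAIP3 and BIRC3.

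NFKBIA encodes IkB alpha, the inhibitor that NF-kB induces to end its own activity. NFKBIA (ENSG00000100906, chromosome 14, 35401079 to 35404749, minus strand, 6 exons in the canonical transcript; GRCh38 here and below) was at 44.5, 39.6 and 36.4 CPM in LMB replicates 1, 2 and 3 and at 43.0, 39.3 and 36.8 CPM in LMB+auxin replicates 1, 2 and 3. Each LMB+auxin library lay close to the LMB library of its own number, and the groups overlapped over nearly their whole range. The means were 40.1 ± 4.09 and 39.7 ± 3.12 CPM (SD, n = 3 each). The log2 fold change, LMB+auxin over LMB, was -0.01 ± 0.09 (here and below ± the standard error of the fit), at an edgeR adjusted p of 0.991. The 95% interval of the fold ran from 0.855 to 1.15 without the block and from 0.915 to 1.07 with it.

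NFKB1 and NFKB2 encode the p105 and p100 precursors, which act as inhibitors until they are processed to the p50 and p52 subunits, and RELB encodes the usual partner of p52. NFKB1 (ENSG00000109320, chromosome 4, 102501330 to 102617302, plus strand, 24 exons) was at 93.1, 88.3 and 89.9 CPM in LMB and 95.3, 92.6 and 96.2 CPM in LMB+auxin. It was higher with auxin in 3 of 3 pairs, but the lowest LMB+auxin library lay below the highest LMB library. Its log2 fold change of 0.07 ± 0.06 was the highest of the 7. The edgeR adjusted p was 0.954, or 0.456 in the block fit, in both cases the lowest of the 7. With the block the 95% interval of its fold was 0.979 to 1.12.

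NFKB2 (ENSG00000077150, chromosome 10, 102394110 to 102402524, plus strand, 23 exons) was at 26.3, 23.2 and 23.0 CPM in LMB and 29.3, 24.0 and 22.0 CPM in LMB+auxin. Replicate 1 was the highest library in both groups, and both the highest and the lowest value were in LMB+auxin. RELB (ENSG00000104856, chromosome 19, 45001461 to 45038192, plus strand, 12 exons) was at 12.3, 7.35 and 8.57 CPM in LMB and 11.5, 7.42 and 8.79 CPM in LMB+auxin. The libraries of RELB differed more by replicate number than by group. The log2 fold changes were 0.06 for NFKB2 (± 0.11, edgeR adjusted p 0.973) and -0.02 for RELB (± 0.21, edgeR adjusted p 0.994). The block narrowed the 95% interval of the RELB fold from 0.712 to 1.37 down to 0.875 to 1.12.

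TNFAIP3 encodes A20, a ubiquitin-editing enzyme that turns off signalling upstream of NF-kB. TNFAIP3 (ENSG00000118503, chromosome 6, 137867214 to 137883314, plus strand, 9 exons) was at 6.08, 4.28 and 5.38 CPM in LMB and 5.69, 4.79 and 4.55 CPM in LMB+auxin. The highest and the lowest value were both in LMB, and LMB+auxin was higher in 1 of 3 pairs. The log2 fold change of -0.07 ± 0.16 had an edgeR adjusted p of 0.978. The exons of TNFAIP3 share 95 bases, or 1.47% of their length, with WAKMAR2 on the opposite strand, and the strand setting of the counting is not given in the sources used here. None of the other 9 genes shares exon bases with another gene of the table.

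BIRC3 encodes cIAP2, a ubiquitin ligase of the TNF receptor complex that protects cells from death. BIRC3 (ENSG00000023445, chromosome 11, 102317484 to 102339403, plus strand, 9 exons) was at 11.9, 8.82 and 9.18 CPM in LMB and 12.1, 7.42 and 8.88 CPM in LMB+auxin. Replicate 1 was again the highest library of both groups, and the LMB values fell inside the range of LMB+auxin. Its log2 fold change of -0.07 (± 0.18, edgeR adjusted p 0.978) was the lowest of the 7.

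The chemokines CXCL1, CXCL2, CXCL3 and CXCL8 are secreted ligands of the neutrophil receptor CXCR2. CXCL3 (ENSG00000163734, chromosome 4, 74036589 to 74038807, minus strand, 4 exons) was the only one of them to pass the filter, at 3.01, 3.00 and 2.99 CPM in LMB and 3.03, 3.15 and 2.67 CPM in LMB+auxin. The LMB values lay within the range of LMB+auxin, which was set by replicates 2 and 3. CXCL3 counts ran from 85 to 108 per library, and edgeR gave a log2 fold change of -0.03 ± 0.14 (adjusted p 0.990). CXCL3 had the widest 95% interval of the 7 genes in the block fit, a fold of 0.808 to 1.19.

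The other chemokines were detected at low counts. CXCL2 (ENSG00000081041, chromosome 4, 74097040 to 74099196, minus strand) had 29, 24 and 26 counts in LMB and 27, 22 and 38 in LMB+auxin. CXCL8 (ENSG00000169429, chromosome 4, 73740519 to 73743716, plus strand), the gene of interleukin 8, had 27, 22 and 25 counts in LMB and 26, 26 and 14 in LMB+auxin. CXCL1 (ENSG00000163739, chromosome 4, 73869393 to 73871308, plus strand) had 7, 3 and 7 counts in LMB and 7, 4 and 3 in LMB+auxin. LMB+auxin replicate 3 held the highest CXCL2 value and the lowest CXCL8 value of all libraries, and the groups overlapped for all 3 genes.

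In a fit without the filter on low counts, which tested 39271 genes, none of these 3 chemokines was called by edgeR. The log2 fold change was 0.21 for CXCL2 with a 95% interval of -0.33 to 0.76, -0.08 for CXCL8 with an interval of -0.67 to 0.51 and -0.19 for CXCL1 with an interval of -1.34 to 0.96. The edgeR adjusted p-values were 0.902, 0.983 and 0.972. The intervals of CXCL1 and CXCL8 take in a change of 1.3-fold both ways, and that of CXCL2 takes in such an increase. Changes of this size in these directions were therefore not excluded. CXCL1, CXCL2 and CXCL3 are near copies of each other, and reads that the counting could not place among them would make their separate values uncertain.

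The median log2 fold change of the 7 tested genes was -0.02, and that of all tested genes was -0.003. Of the 7, 2 lay above 0 and 5 below, between -0.07 and 0.07. Without the block the 95% intervals of RELB, TNFAIP3 and BIRC3 reached past a 1.3-fold decrease. That of RELB also reached past a 1.3-fold increase, and those of the other 4 stayed inside 1.3-fold both ways. With the block all 7 intervals lay between a fold of 0.808 and 1.19. The median moved to 0.07 without LMB replicate 1, to -0.08 without LMB+auxin replicate 1, to 0.08 without LMB+auxin replicate 2 and to 0.04 without LMB+auxin replicate 3. In each of the 18 alternative fits 0 of the genes, as far as tested, were called. TNFAIP3 was not tested under the expression filter of the study, and DESeq2 with the block gave no adjusted p for TNFAIP3 and CXCL3. A single gene, NFKB1 in the block fit without replicate 1, had an unadjusted p under 0.05 (edgeR adjusted p 0.343).

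**Figure D2:**
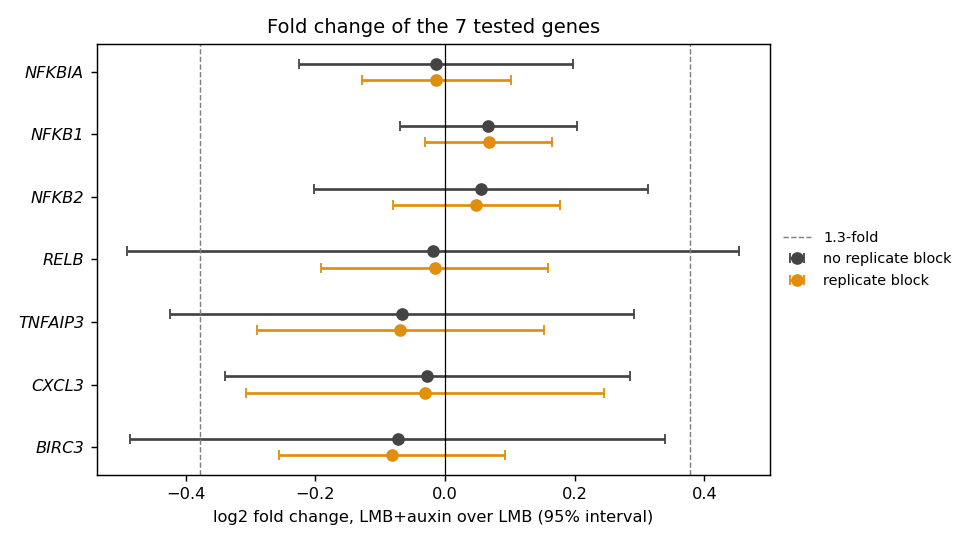
Log2 fold change of LMB+auxin over LMB (horizontal axis) for the 7 tested genes, with 95% intervals from edgeR without (grey) and with (orange) the replicate block, and dashed lines at 1.3-fold. The estimates of both fits lie between -0.08 and 0.07, and all intervals cross 0. The block shortens the RELB interval most, from between 0.712 and 1.37 to between 0.875 and 1.12 on the linear scale.

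Levels between genes were compared per kilobase of merged exons, over all 6 libraries. NFKBIA was the most abundant at 11.8 ± 0.961 CPM per kb, followed by NFKB1 at 5.91 ± 0.194, NFKB2 at 4.41 ± 0.481 and RELB at 3.11 ± 0.699 CPM per kb (SD, n = 6 each). CXCL3 at 1.34 ± 0.0723, BIRC3 at 1.297 ± 0.248, TNFAIP3 at 0.796 ± 0.109, CXCL2 at 0.637 ± 0.131, CXCL8 at 0.292 ± 0.0713 and CXCL1 at 0.122 ± 0.0491 CPM per kb came after them (SD, n = 6 each). The ranges of neighbours in this order overlapped for NFKB2 and RELB, CXCL3 and BIRC3, TNFAIP3 and CXCL2, and CXCL8 and CXCL1, and for no other neighbours. The length chosen matters, for example for NFKB1, whose merged exons span 15679 bases and whose canonical transcript has 4055. Per kilobase of canonical transcript NFKBIA was at 25.6 and NFKB1 at 22.8 CPM. On that length CXCL3 was at 2.77, BIRC3 at 1.41 and TNFAIP3 at 1.10 CPM. The overlaps above are those for merged exons and need not hold for canonical transcripts.

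The chemokine genes lie in a stretch of 358.7 kb on chromosome 4 (73740519 to 74099196) that holds 9 such genes. CXCL5 (ENSG00000163735), another CXCR2 ligand of this stretch, was far above the rest, at 202, 117 and 149.9 CPM in LMB and 206, 116 and 159 CPM in LMB+auxin. CXCL5 took the same order by replicate number in both groups, with replicate 1 the highest and replicate 2 the lowest, and the groups overlapped. The CXCL5 log2 fold change of 0.04 ± 0.24 had an edgeR adjusted p of 0.991. Per kilobase CXCL5 was at 65.1 ± 16.2 CPM (SD, n = 6), beside 1.34 for CXCL3, the next of the cluster. CXCL6, whose promoter window was, among the 6 CXCL genes compared, the most like that of CXCL5, had 0 counts in all 6 libraries, which allows up to 0.106 CPM in the library of lowest total and 0.0834 CPM in that of highest total (3 counts, counting error only). PF4 was at 1.31 ± 0.386 CPM per kb, PF4V1 had at most 2 counts and PPBP at most 1 in a library.

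**Figure D3:**
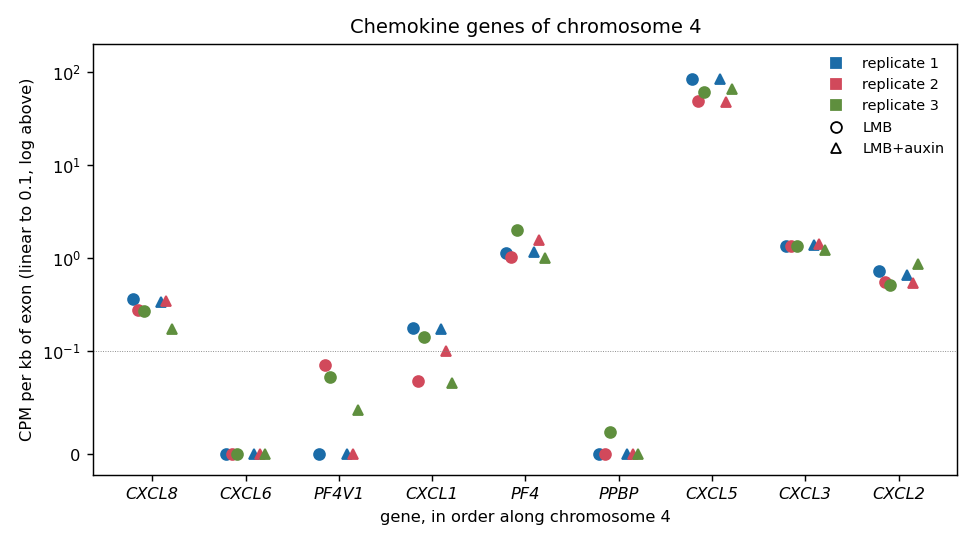
Level in CPM per kilobase of merged exons (vertical axis, linear up to 0.1 and logarithmic above) of the 9 chemokine genes in their order along chromosome 4, for each LMB library (circles) and LMB+auxin library (triangles), coloured by replicate number. CXCL5 stands at 65.1 on average, CXCL3, PF4 and CXCL2 between 0.637 and 1.34, and CXCL6 at 0 in all libraries.

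The receptors of these ligands were all below the filter. ACKR1 had 0 counts in all libraries, CXCR1 at most 2 and CXCR2 between 1 and 6.

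The clearest pattern among the tested genes ran along the replicate numbers and not along the groups. NFKBIA, NFKB2, RELB, TNFAIP3 and BIRC3, 5 of the 7, were highest in replicate 1 of both groups. Among all tested genes 21.3% were so, and among the 82 tested genes of the wider pathway 19 (23.2%). In the wider pathway replicate 2 was more often the highest of both groups, for 28 genes (34.1%), beside 26.9% of all tested genes. The range of the replicate means, each averaged over both groups, was 0.68 log2 units for RELB and 0.56 for BIRC3, at the 96.3rd and 92.5th percentile of all tested genes. The range was 0.37 for TNFAIP3, 0.30 for NFKB2, 0.26 for NFKBIA, 0.12 for CXCL3 and 0.06 for NFKB1, beside a median of 0.21 over all tested genes. CXCL5 was also highest in replicate 1 of both groups, with a range of 0.81, at the 98.1st percentile. What the replicate numbers stand for, such as a day or a passage, is not given in the sources used here.

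**Figure D4:**
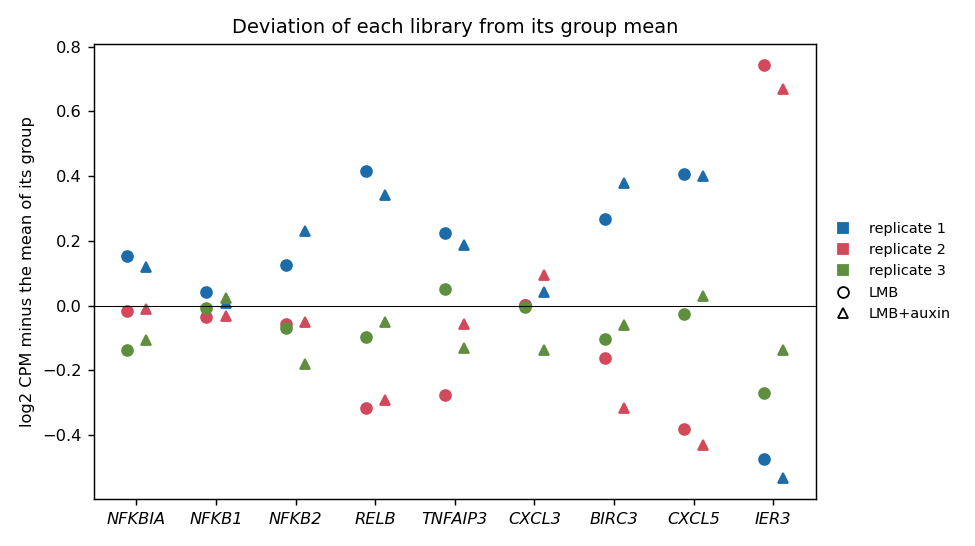
Deviation of each library from the mean of its own group in log2 CPM (vertical axis) for the 7 tested genes and for CXCL5 and IER3, with LMB as circles, LMB+auxin as triangles and replicate numbers in colour. Circles and triangles of a colour lie together for NFKBIA, RELB, CXCL5 and IER3, with replicate 1 highest for the first 3 of these and replicate 2 highest for IER3. For BIRC3 replicate 1 is highest in both groups, but the circle of replicate 2 lies nearer that of replicate 3 than its own triangle.

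Outside the 10 genes, the 5 genes most like the mean profile of the 7 tested ones over the 6 libraries were COX10-DT, POLR1H, ENSG00000279452, LINC02210-CRHR1 and ZNF239, with Pearson r between 0.986 and 0.990. Of 12474 genes with a mean of at least 5 CPM, 1.72% had an r above 0.9. This is a description over 6 libraries that share replicate numbers.

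The other subunits and inhibitors of the family were expressed in all libraries. The activating subunits RELA and REL were at 8.10 ± 0.282 and 2.77 ± 0.112 CPM per kb (SD, n = 6 each), with log2 fold changes of -0.01 and 0.004. That of REL changed sign when counts were scaled by library size alone or by upper quartiles. The IkB family members NFKBIE, NFKBIB, NFKBIZ, NFKBID and BCL3 were at 7.77, 6.57, 5.24, 1.43 and 0.932 CPM per kb, and 4 of the 5 had a log2 fold change below 0. NFKBID, which encodes a nuclear IkB protein, was at 5.60, 4.89 and 4.77 CPM in LMB and 4.14, 4.001 and 4.11 CPM in LMB+auxin. The groups of NFKBID did not overlap, and its log2 fold change of -0.31 ± 0.13 did not pass the test (edgeR adjusted p 0.954, and 0.108 in the block fit).

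Beyond the 10 genes, a list of 107 NF-kB pathway genes was read from the same fit, of which 106 were in the table and 82 were tested. Without the block edgeR called 0 of the 82, and 3 (NFKBID, FADD and ZC3H12A, all lower) had an unadjusted p under 0.05, beside 4.37% of all tested genes. DESeq2 and limma-voom also called 0. The median log2 fold change was -0.002, with 41 genes above and 41 below 0. Groups did not overlap for 7 of the 82, beside 11.5% of all tested genes. With the block 1 gene was called, beside 1.19%, and 5 passed the adjusted p alone, beside 4.39%. Lower genes that passed it were 4 of the 82, beside 3.27% (555) of all 16974 tested genes.

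By role, 0 genes were called without the block in any of the following lists. These were 2 Rel subunits, 5 IkB family genes, 10 genes of the IKK complex and upstream kinases, and 28 tested receptors and adaptors. The rest were 12 tested genes of ubiquitin editing and other regulators, 10 tested ligands and cytokine targets, and 15 tested other targets. The log2 fold changes of the IKK genes ran from -0.17 to 0.10 and none had an unadjusted p under 0.05 in either fit.

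IER3, an NF-kB target that modulates cell survival, was the pathway gene called with the block. It was at 114, 264 and 131 CPM in LMB and at 157, 361 and 206 CPM in LMB+auxin, higher with auxin in 3 of 3 pairs. Replicate 2 was the highest library of both groups, so that the groups overlapped although each pair moved the same way. In the block fit IER3 rose by 0.52 ± 0.05 on the log2 scale (edgeR adjusted p 1.57e-16). EdgeR estimates spread with help from all tested genes. This error and p, like those of the other genes, therefore do not rest on the 3 pairs of the gene alone. The fit that ignores the pairs gave 0.51 ± 0.40 (edgeR adjusted p 0.954), and there the value ran from 0.10 without LMB+auxin replicate 2 to 0.99 without LMB replicate 2. In the block fit IER3 stayed between 0.46 and 0.57, and was called, when any 1 pair was left out. DESeq2 with the block called it as well (adjusted p 2.10e-18). The exons of IER3 (ENSG00000137331, chromosome 6, 30743199 to 30744548, minus strand) share 440 bases, or 32.6% of their length, with IER3-AS1 on the opposite strand.

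**Figure D5:**
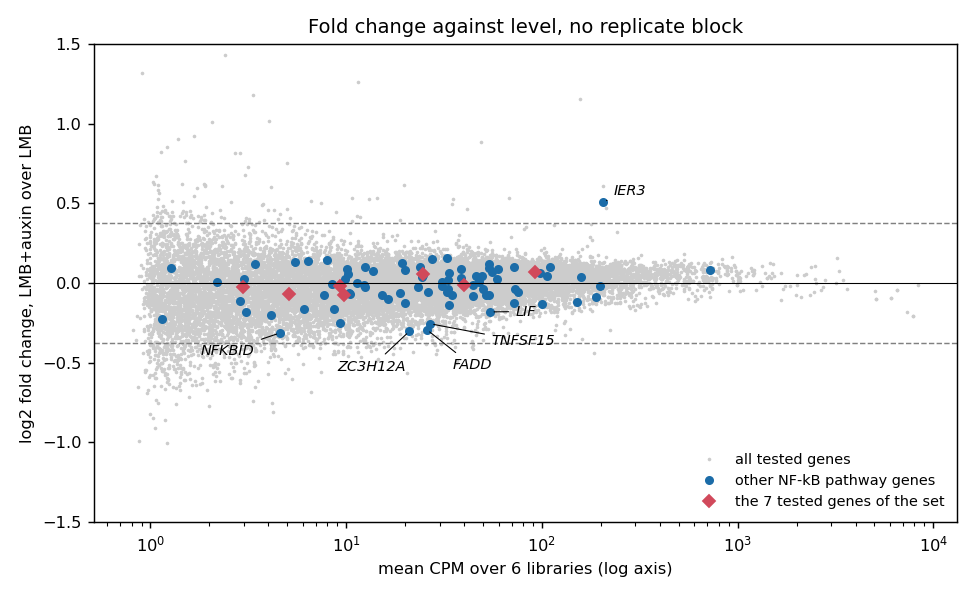
Log2 fold change without the block (vertical axis) against mean CPM over the 6 libraries (horizontal axis, logarithmic) for all 16974 tested genes (grey), the 82 other NF-kB pathway genes (blue) and the 7 tested genes of the set (red), with dashed lines at 1.3-fold. The plot leaves out 1 gene beyond 1.5 log2 units. The red points lie between -0.07 and 0.07, and IER3 at 0.51 is the only blue point past 1.3-fold.

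The other 4 that passed the adjusted p with the block were below the fold threshold. None passed the adjusted p in DESeq2 with the block, where it ran from 0.134 for FADD to 0.277 for TNFSF15. FADD, the adaptor of death receptors, was at 28.2, 28.8 and 28.3 CPM in LMB and 23.2, 22.1 and 24.4 CPM in LMB+auxin, with no overlap. In the block fit FADD differed by -0.29 ± 0.06 on the log2 scale (edgeR adjusted p 0.00137), and 59.2% of its exon bases are shared with ENSG00000254721 on the opposite strand. ZC3H12A encodes Regnase-1, an RNase that degrades cytokine mRNAs. It was at 23.5, 23.8 and 22.3 CPM in LMB and 17.7, 19.9 and 18.9 CPM in LMB+auxin, also with no overlap, and the block fit put it at -0.30 ± 0.07 (edgeR adjusted p 0.00186). The cytokine genes TNFSF15 and LIF were lower with auxin in 3 of 3 pairs while their groups overlapped, with log2 fold changes of -0.25 (edgeR adjusted p 0.00945) and -0.19 (0.0258) in the block fit. Without replicate 2 of both groups the edgeR adjusted p in the block fit was 0.117 for FADD, 0.268 for TNFSF15 and 0.0970 for LIF, and without replicate 3 it was 0.0601 for FADD, 0.0712 for ZC3H12A, 0.284 for TNFSF15 and 0.475 for LIF. Without the block, TNFSF15 ran from -0.36 without LMB replicate 1 to -0.11 without LMB replicate 2, and LIF from -0.33 without LMB+auxin replicate 2 to -0.05 without LMB+auxin replicate 3.

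A list of 5 genes known to answer to the auxin compound through the aryl hydrocarbon receptor was read beside these. All 5 were tested and had a log2 fold change above 0. Without the block edgeR called 0 of them (3 at an unadjusted p under 0.05). With the block it called TIPARP at 0.61 (adjusted p 1.93e-19), where 1.19% of all tested genes were called, and CYP1B1 passed the adjusted p alone. The summed level of the 5 was 588 to 669 CPM in LMB and 804 to 959 CPM in LMB+auxin. Whether these genes answered to the compound or to TPR loss cannot be told apart, and any part of the compound in the values of IER3, FADD, ZC3H12A, TNFSF15 and LIF was not tested.

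The cells carried most of the markers of their label, and a few markers of other cell types also passed the filter. Of 10 colon epithelium markers 9 were tested, with a summed level of 7772 to 7824 CPM in LMB and 7614 to 8225 CPM in LMB+auxin. Of 10 leukocyte markers 2 were tested (sum of all 10, 6.20 to 9.02 CPM in LMB and 6.18 to 7.81 in LMB+auxin). The other 8 were below the filter, and 1 of them had 0 counts in all libraries. Of 7 fibroblast markers 0 were tested (1.31 to 1.33 and 0.909 to 1.27 CPM) and of 5 endothelial markers 1 was (3.77 to 5.40 and 2.93 to 5.71 CPM). In bulk RNA, fewer cells expressing a gene and less RNA per cell cannot be told apart.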

How the data were processed

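RNA-seq was made from 6 cultures, 3 per group, which the study describes as independent biological replicates. The authors deposited whole-number read counts for each Ensembl gene, not normalized. Per the labels the authors used CASAVA 1.8.2, STAR 2.6.1c and featureCounts 1.5.2 with GRCh38; the strand setting and the rule for multiply mapped reads are not given in the sources used here. A protocol shared by all samples names auxin for every tagged line; the grouping here follows the treatment field of the single sample. Symbols were found for 98.1% of identifiers, and coordinates are from GENCODE 44.

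Counts were tested with edgeR 4.0.16 (R 4.3.3; TMM, two-sided quasi-likelihood test, Benjamini-Hochberg adjustment over all 16974 tested genes) after a filter of CPM above 1 in at least 3 libraries. Alternatives were the replicate block, DESeq2 1.42.0, limma-voom (limma 3.58.1), other scalings and filters and libraries left out. The replicate numbers come from the sample titles. Deviations from group means correlated within numbers 1, 2 and 3 at 0.53, 0.69 and 0.27. The highest correlation of each with another number was 0.15, -0.30 and 0.15. The numbers were therefore taken as pairs, which is least clear for replicate 3. Intervals of counts cover counting error only.

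All 10 genes were named. Of the pathway list, Rel subunits, the IkB family and the chromosome 4 chemokines were named by level, and of the rest those with an adjusted p under 0.05 in either edgeR fit. The 5 genes of most similar profile were named by Pearson r of log2 CPM with the mean centred profile (prior count 2). The genes and lists were chosen with earlier results of these data known.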

Additional observations from a re-analysis of the deposited data

How the results depend on the processing

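The replicate block gave 202 called genes in place of 1 and 1 called pathway gene (IER3) in place of 0, and it also called TIPARP, and no other named gene changed its call. With replicate 1, 2 or 3 of both groups left out, the block fit called 140, 160 and 137 genes and 1 pathway gene each time. DESeq2 called 11 genes, DESeq2 with the block 31 (1 pathway gene), and the fit with no filter on low counts 39. EdgeR called 0 under library size alone (736 at an unadjusted p under 0.05). A single library left out of the fit that ignores pairs gave 0 to 5 calls. The count was 0 for LMB replicates 1 and 3 (378 and 538 genes at that p) and for LMB+auxin replicates 1 and 3 (694 and 464), 2 for LMB replicate 2 and 5 for LMB+auxin replicate 2. The cause was not tested.

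In all 18 alternatives 0 of the 10 genes, as far as tested, were called, and 109 of their 125 alternative log2 fold changes kept their sign. The reversals, over these and other named genes, did not pass the test in any case. With a single library left out, the median of the tested genes ran from -0.076 to 0.075, NFKBIA from -0.081 to 0.065, NFKB2 from -0.069 to 0.15, RELB from -0.21 to 0.22, TNFAIP3 from -0.18 to 0.048, CXCL3 from -0.075 to 0.047, BIRC3 from -0.28 to 0.075, RELA from -0.033 to 0.026, REL from -0.022 to 0.054, NFKBIE from -0.20 to 0.0090, NFKBIZ from -0.047 to 0.088 and CXCL5 from -0.18 to 0.27. In the block fit, without replicate 1 NFKBIA was at 0.0046, NFKB2 -0.0069, RELB 0.027, RELA 0.0096, REL -0.029, NFKBIE 0.041 and NFKBIZ -0.032; without replicate 2 REL -0.011 and NFKBIZ -0.032; without replicate 3 TNFAIP3 0.030, CXCL3 0.046 and RELA 0.032. REL was at -0.0076 under library size alone and -0.0047 under upper quartiles, and NFKBIZ at -0.0024 under library size alone. CXCL1, CXCL2 and CXCL8 had at most 38 counts in a library, which limits their precision.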
